A study of Mus musculus with 6 samples.

Results

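The cytosolic and mitochondrial chaperone families were measured in E0771, a breast carcinoma line from a C57BL/6 mouse, and were compared between control cells and cells with reduced lamin A/C. The families were chosen by gene symbol. All genes of the count table whose symbol starts with Hsp or Dnaj, or with Cct and a digit, were taken, except the endoplasmic reticulum (ER) chaperones Hspa5, Hsp90b1, Dnajb9, Dnajb11 and Dnajc3 and the proteoglycan gene Hspg2. This gave 59 of 10520 genes, of which 57 were among the 8969 that passed the filter on low counts. The remaining pair, Cct6b with 2 to 7 and Hspa12b with 2 to 9 molecules in a library, was too low to test. RNA was measured in 3 shControl libraries, from cells that carried the empty pLKO.5-puro lentiviral vector, and in 3 shLmna libraries, from cells that carried an shRNA against Lmna, the gene of lamin A and lamin C. Both were puromycin-selected pools, and the knockdown rests on 1 shRNA, which the library titles call shRNA4. The libraries are numbered replicates, and nothing in the labels says that they came from separate cultures, so p-values measure the spread between these libraries, which may be technical. Levels are given in CPM, counts scaled to the size of the library, and each count is a UMI (unique molecular identifier), which stands for 1 captured RNA molecule read at its 3' end, so that transcript length does not enter the value.

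Chaperones bind unfolded or partly folded proteins and help them reach or keep their shape. HSP70 proteins do so in cycles of ATP hydrolysis that J proteins (the Dnaja, Dnajb and Dnajc genes) start and that nucleotide exchange factors, among them the HSP110 proteins, end. HSP90 acts later, on partly folded clients such as kinases and steroid receptors. The CCT (or TRiC) ring encloses actin, tubulin and other newly made proteins, and the HSP60 and HSP10 chaperonin does the same inside mitochondria. Heat and other protein-damaging stress raise many of these genes through heat shock factor 1, the product of Hsf1, which binds inverted repeats of GAA and TTC called heat shock elements.

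The targeted gene was lower in the libraries labelled shLmna. Lmna stood at 873 ± 62.8 CPM in shControl and at 381 ± 6.34 in shLmna (SD, n = 3 each), a log2 fold change of -1.20 ± 0.13 (SE, edgeR adjusted p = 3.55e-05). The libraries held between 1846208 and 3242051 UMIs, and the shControl libraries took plate positions 13 to 15 and the shLmna libraries positions 16 to 18, so that position and knockdown cannot be told apart. Of the 5 epithelial marker genes, Krt8 ranged from 246 to 305 CPM, Krt18 and Epcam stayed at or below 14.4, and Krt19 and Cdh1 were not analysed here. Summed fibroblast, endothelial and leukocyte markers stayed at or below 13.3 CPM in every library. These sums held 3 of 4 fibroblast genes, 1 of 3 endothelial genes (Pecam1) and 1 of 4 leukocyte genes (Cd68), and the others were not analysed here.

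Chaperone RNA took a smaller share of the molecules in the knockdown. The members together made up 2.26%, 2.17% and 2.02% of all UMIs in shControl replicates 1 to 3 and 1.65%, 1.55% and 1.66% in shLmna. The summed level was 0.727 times that of shControl, and without the most abundant members, Hspa8 and Hsp90ab1, which held 32.5% to 43.7% of the chaperone UMIs, it was 0.806 times. Bulk libraries cannot tell fewer expressing cells from less RNA per cell.

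Of the 57 genes tested, 10 passed an adjusted p of 0.05 in edgeR's quasi-likelihood test, or 17.5%, beside 13.7% of all genes tested. The direction was unequal. A total of 7 fell in shLmna (12.3%, against 5.78% of all genes) and 3 rose (5.26%, against 7.96% of all genes). These shares were not matched for level, and the members tested had a median of 60.8 CPM against 35.8 for all genes tested. The genes that fell were Hspa1b, Hsph1, Hspa8 and Hsp90ab1, which are on the list of classical heat-inducible members although Hspa8 and Hsp90ab1 are mainly constitutive, the J protein genes Dnajc11 and Dnajc7, and the chaperonin subunit Cct7. The genes that rose were Hspb6, Dnajc4 and Dnajb14. The counts rested in part on single libraries. The number that fell was 4 without shControl replicate 1, 3 without shControl replicate 2, 11 without shControl replicate 3, 4 without shLmna replicate 2 and 3 without shLmna replicate 3, and the number that rose was 1 without shControl replicate 2 and 0 without shLmna replicate 1 or 3. Calls over all genes, in either direction, numbered 1232 with all libraries. They numbered 794, 540 and 1580 without shControl replicates 1 to 3 and 866, 757 and 651 without shLmna replicates 1 to 3. Only Hspa1b also met the criteria of the study, which add an absolute log2 fold change above 1 and a mean normalized count above 5, or 1.75% of the members against 5.71% of all genes. That count was 2 without shControl replicate 1 and 0 without shControl replicate 3 or shLmna replicate 3.

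Over all members tested, more lay on the lower side than on the higher. The log2 fold change was negative for 37 of 57 members (64.9%) and for 49.6% of all genes tested, with medians of -0.16 and 0.0033. The shLmna and shControl libraries did not overlap, with shLmna lower, for 17 members (29.8%, against 15.7% of all genes), and with shLmna higher for 5 (8.77%, against 16.8%). Standard errors of the members ran from 0.13 to 0.42 on the log2 scale, with a median of 0.19, and the widest belonged to Dnajb5, the scarcest member tested. For such genes a difference that did not pass was not detectable at this depth, which does not make it absent.

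**Figure D1:**
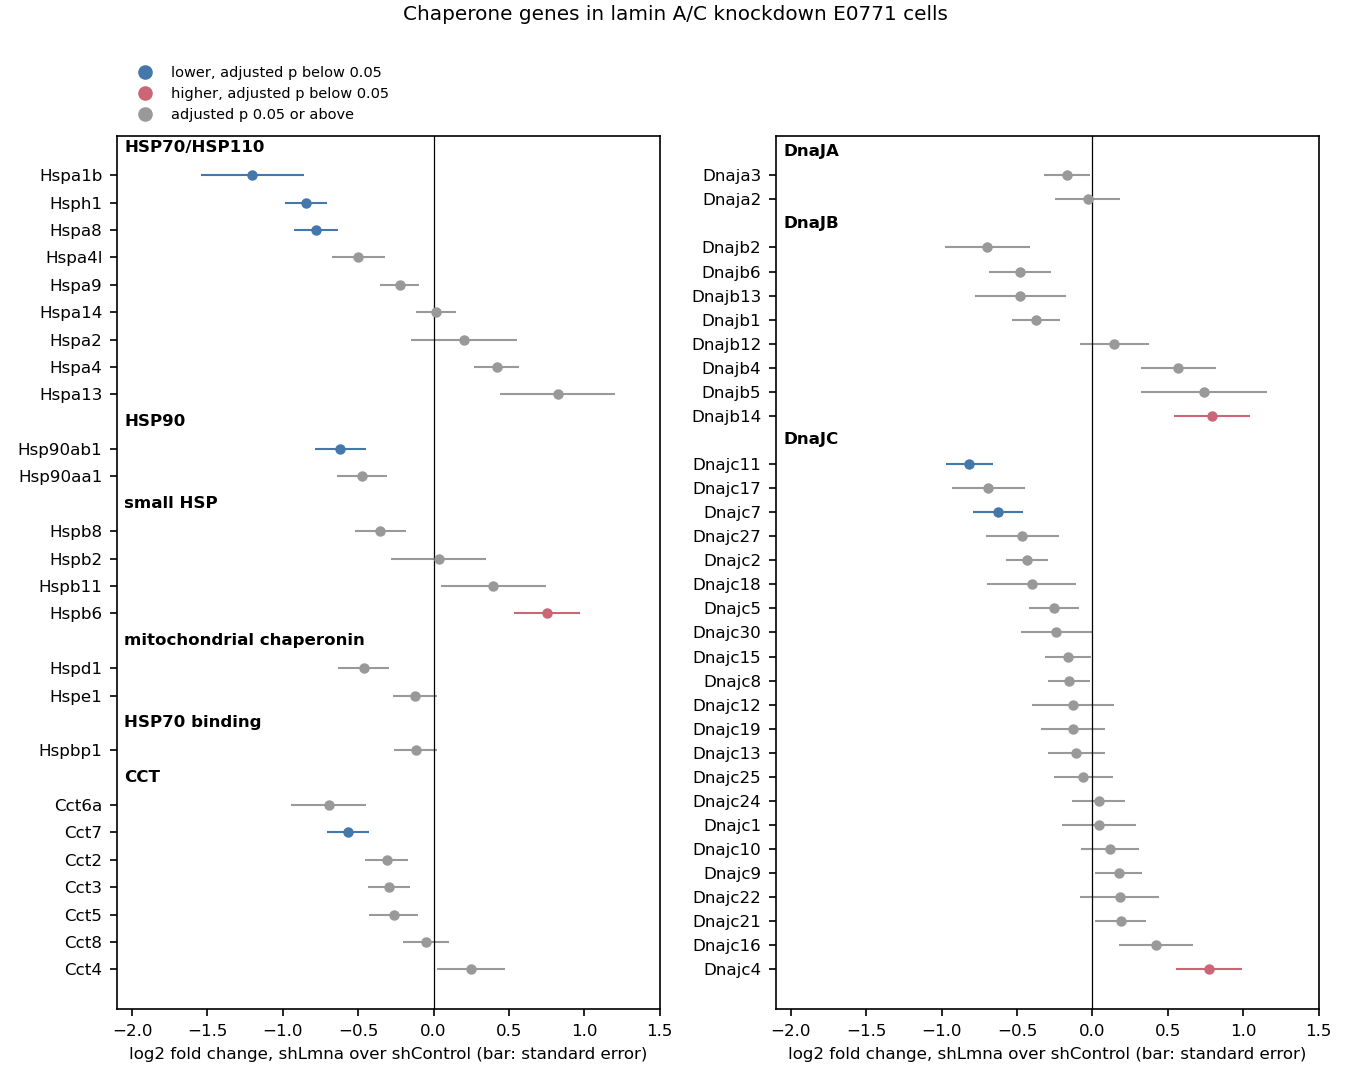
Log2 fold change of each of the 57 members tested, shLmna over shControl, with its standard error (x axis), grouped by family (y axis). Blue points are lower and red points higher at an adjusted p below 0.05 (edgeR), and left of 0 lie 5 of 9 points in HSP70/HSP110, both in HSP90, 6 of 7 in CCT and 20 of 32 in the J protein families.

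**Figure D2:**
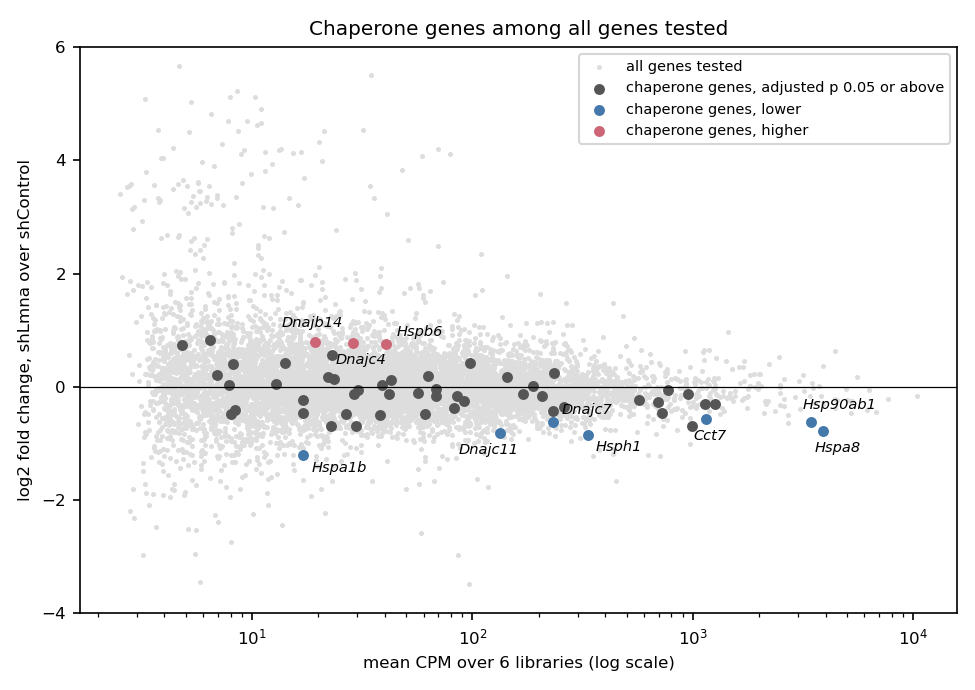
Log2 fold change (y axis) against the mean CPM over the 6 libraries (x axis, log scale) for all 8969 genes tested (grey) and the members (dark, blue or red). The called members that fell include the 2 most abundant ones, Hspa8 and Hsp90ab1, and the 3 that rose lie at or below 59.6 CPM in every library.

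The promoters of Hsph1, Hspa1b and Hspd1, all on the heat-inducible list, are shown because Hsph1 and Hspa1b were among the genes that fell and the Hspd1 window holds the longest run of heat shock element units. Sequences of 250 bases before and 50 bases after the start were taken from RefSeq (GRCm38.p6) and exist in that table for 45 members. Cct4, Dnajc11, Dnajc12, Dnajc18, Dnajc2, Dnajc22, Dnajc30, Dnajc5, Hsp90aa1, Hsp90ab1, Hspa13, Hspa8, Hspa9 and Hspb2 had no entry. Capitals mark runs that match GAANNTTC or TTCNNGAA, the 2-unit core of a heat shock element, and overlapping matches are joined into 1 run. The window of Hspd1 overlaps that of its divergent neighbor Hspe1 by 285 bases. Hsph1 and Hspd1 each have 2 windows in the table, of which 1 is shown. The windows are chr5:149636266-149636565 for Hsph1, chr17:34959189-34959488 for Hspa1b and chr1:55087883-55088182 for Hspd1, all on the minus strand and written 5' to 3' on that strand.
Hsph1: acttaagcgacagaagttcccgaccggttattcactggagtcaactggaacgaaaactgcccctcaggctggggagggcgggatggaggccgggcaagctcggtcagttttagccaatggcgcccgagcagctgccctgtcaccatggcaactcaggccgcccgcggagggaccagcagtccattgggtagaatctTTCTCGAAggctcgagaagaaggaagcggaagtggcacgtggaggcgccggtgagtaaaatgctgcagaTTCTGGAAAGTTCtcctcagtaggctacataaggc
Hspa1b: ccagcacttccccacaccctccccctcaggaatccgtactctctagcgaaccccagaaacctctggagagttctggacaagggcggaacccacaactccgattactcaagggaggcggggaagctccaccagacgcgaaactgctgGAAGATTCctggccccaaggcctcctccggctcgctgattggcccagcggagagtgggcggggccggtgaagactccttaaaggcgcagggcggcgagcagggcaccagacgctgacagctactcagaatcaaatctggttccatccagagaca
Hspd1: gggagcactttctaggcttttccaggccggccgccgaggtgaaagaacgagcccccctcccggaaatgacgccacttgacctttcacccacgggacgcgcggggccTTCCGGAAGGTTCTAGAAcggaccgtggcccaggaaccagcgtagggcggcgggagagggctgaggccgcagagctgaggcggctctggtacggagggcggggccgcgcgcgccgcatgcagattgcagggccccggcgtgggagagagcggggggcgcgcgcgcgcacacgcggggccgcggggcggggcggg

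The Hsph1 window held TTCTCGAA 46 bases before the start and TTCTGGAAAGTTC, a run of 3 units, beginning 15 bases after it. The Hspa1b window held the 2-unit GAAGATTC 96 bases before the start. In Hspd1 the run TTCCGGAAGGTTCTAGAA was 18 bases long and lay 126 bases before the start of the window shown. The other Hspd1 window, chr1:55088194-55088493, held no such run. That window lies upstream of the one shown, so the run falls after its start. Both strands were searched for a run of 3 alternating units (GAA and TTC in turn, each parted from the next by 2 bases). It was in the windows of 4 of the 45 members, namely Dnajb6, Hspd1, Hspe1 and Hsph1 (8.89%), and in 0.662% of 27025 genes of the RefSeq table. The runs of Hspd1 and Hspe1 are the same site read on opposite strands, counted for both genes. A run of 2 units or more was in 13 of 45 members (28.9%), in 4587 of the 27025 genes and in 15.1% of all 32851 windows of the table. Of the 4 members that fell and had an entry, Hsph1 and Hspa1b held such a run and Cct7 and Dnajc7 did not, and of the 3 that rose, Hspb6 held one. CCAAT was in 40.0% of the members and 41.1% of all genes, and in all 4 members that fell and had an entry (Cct7, Dnajc7, Hspa1b and Hsph1). It was also in 2 of the 3 members that rose (Dnajc4 and Hspb6). These matches describe letters in a window and no binding was measured.

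In the HSP70 and HSP110 family Hspa8, Hsph1 and Hspa1b fell, 3 of its 9 genes tested, beside 5.78% of all genes. None rose by edgeR, DESeq2 or limma-voom, with 2 higher genes at an unadjusted p under 0.05 (Hspa4 and Hspa13), and the summed level was 0.632 times that of shControl. Hspa8 (chr9:40800984-40810087, plus strand, build mm10 as for all positions) encodes HSC70, the constitutive HSP70 of the cytosol. Its levels were 5598, 4590 and 4638 CPM in shControl replicates 1 to 3 and 3067, 2502 and 3068 in shLmna. All shLmna libraries lay below all shControl libraries. Hspa8 fell by 41.7%, a log2 fold change of -0.78 ± 0.15 (SE, edgeR adjusted p = 0.0029). The 3' end of Hspa8 shares 88.6% of its 50-base words with other annotated transcripts, among them Gm15459, Gm8355 and Gm6210. None of those named is a gene of the count table, and any others were not looked up. Reads of Hspa8 could therefore have been split or dropped in counting.

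Hsph1 (chr5:149614287-149636376, minus strand) encodes HSP105, an exchange factor for HSP70 that is made in larger amounts after heat. It stood at 439, 423 and 420 CPM in shControl and at 257, 202 and 255 in shLmna. The groups were far apart relative to the spread within them, 10.1 in shControl and 31.3 in shLmna (SD). Hsph1 fell by 44.3%, with a log2 fold change of -0.85 ± 0.14 (SE, edgeR adjusted p = 0.0012), and no other annotated transcript shared a 50-base word of its 3' end. With Hspa8 and Dnajc11 it was 1 of the 3 members that passed the test whichever library was left out.

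Hspa1b (chr17:34956436-34959238, minus strand), the stress-induced HSP70 whose near-identical neighbor Hspa1a was not analysed here, was scarce. Its counts were 52, 64 and 60 UMIs in shControl and 20, 46 and 10 in shLmna, or 20.4, 20.0 and 31.8 against 7.50, 16.9 and 5.32 CPM. The groups did not overlap, although shLmna replicate 2 came close to the shControl range. The log2 fold change was -1.20 ± 0.34 (SE, edgeR adjusted p = 0.0294). That call rested on single libraries. The edgeR adjusted p was 0.0772 without shControl replicate 2, 0.121 without shLmna replicate 1 and 0.133 without shLmna replicate 3, in a range of 0.00265 to 0.133 over the alternatives. Its 3' end shares 23.8% of its 50-base words with Hspa1a, so the value may hold molecules of both genes.

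The other members of the family did not pass the test and went both ways. Hspa4l, an HSP110 gene, had a log2 fold change of -0.50 (95% interval -0.88 to -0.12, edgeR adjusted p = 0.0741) and its sister Hspa4 one of 0.42 (0.10 to 0.73, adjusted p = 0.0761), each without overlap between the groups. When the fit corrected for the GC content of 3' ends both passed in edgeR, in opposite directions, Hspa4l with a log2 fold change of -1.02 and an adjusted p of 0.00119 (range 0.00119 to 0.25 over the alternatives) and Hspa4 with an adjusted p of 0.0361 (range 0.0361 to 0.27). Mitochondrial HSP70, Hspa9, had -0.22, and the ribosome-associated Hspa14 had 0.02 with an interval of -0.27 to 0.30. The microsomal Hspa13 and the testis-enriched Hspa2, both at or below 11.0 CPM in every library, had 0.82 and 0.20. Hspbp1, an exchange factor of another fold, had -0.12.

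HSP90 of the cytosol comes from a constitutive gene, Hsp90ab1, and a more inducible one, Hsp90aa1. Hsp90ab1 (chr17:45567775-45573271, minus strand) stood at 4729, 4544 and 3186 CPM in shControl and at 3086, 2320 and 2698 in shLmna. The groups did not overlap, but shControl replicate 3 lay just above shLmna replicate 1. Hsp90ab1 fell by 35.0%, with a log2 fold change of -0.62 ± 0.17 (SE, edgeR adjusted p = 0.0241). The adjusted p was 0.114 without shControl replicate 1, 0.143 without shControl replicate 2, 0.088 without shLmna replicate 2 and 0.103 without shLmna replicate 3 (edgeR), in a range of 0.00176 to 0.143 over the alternatives. Hsp90aa1 was at 65.9, 76.6 and 69.5 CPM in shControl and 43.5, 57.3 and 52.1 in shLmna, without overlap. Its log2 fold change of -0.47 ± 0.17 (SE) did not pass the test (edgeR adjusted p = 0.0717) and passed with the GC correction (0.024; range 0.024 to 0.258 over the alternatives).

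**Figure D3:**
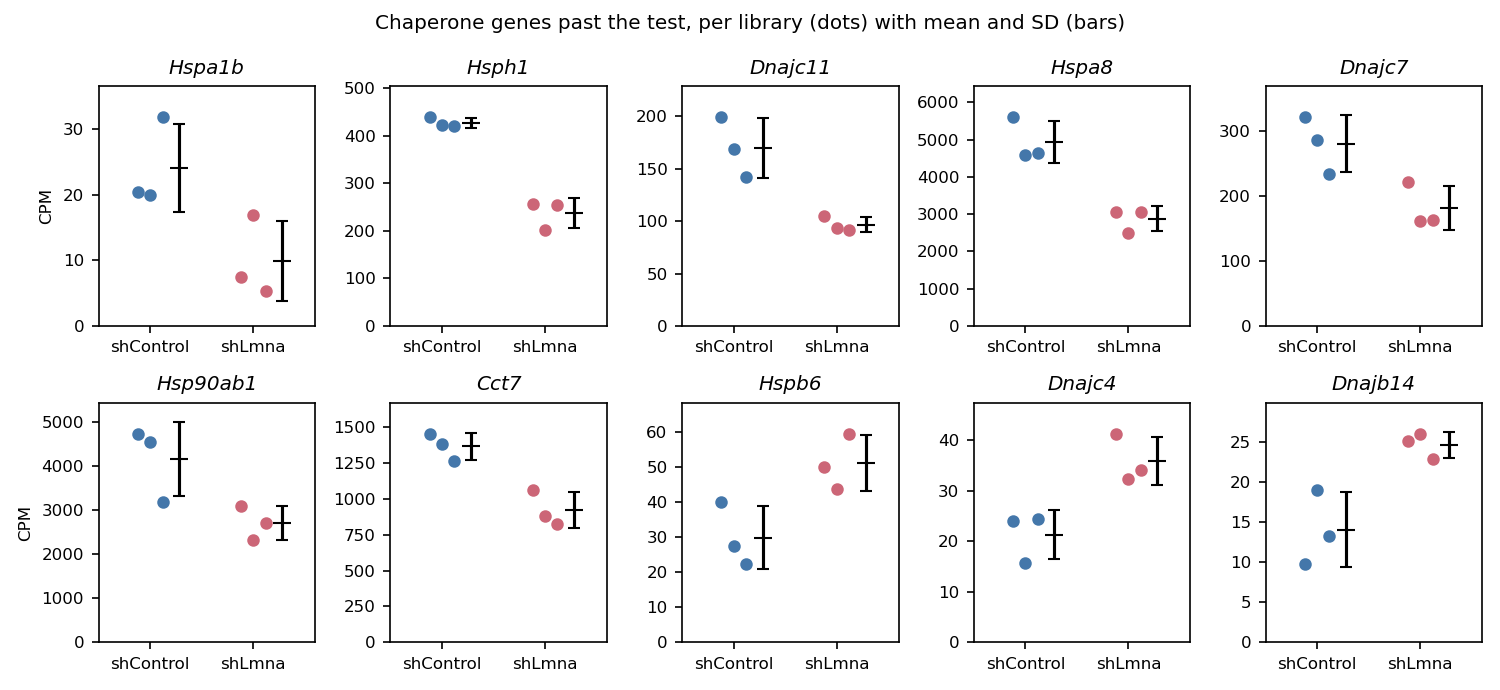
CPM (y axis, from 0) of the 10 members past the test in each shControl (blue) and shLmna (red) library, with the mean and SD of 3 libraries (black). In each panel the 2 groups do not overlap. In Hsp90ab1 shControl replicate 3, at 3186, lies just above shLmna replicate 1, at 3086, and in Hspb6 shControl replicate 1, at 40.0, just below shLmna replicate 2, at 43.7.

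The J proteins, which choose substrates for HSP70, were the largest group, with 32 genes tested and a median log2 fold change of -0.13. Of these 2 were lower and 2 higher, where 5.78% and 7.96% of all genes were. Dnajc7 (chr11:100582818-100620168, minus strand), a J protein whose TPR repeats bind both HSP70 and HSP90, had the highest mean of the DnaJC genes over the 6 libraries, close to that of Dnajc2, which in shLmna was the higher of both (197 against 182 CPM). Dnajc7 measured 322, 287 and 234 CPM in shControl and 221, 162 and 163 in shLmna, so the lowest shControl library stood just above the highest shLmna library. It fell by 35.1% (log2 fold change -0.62 ± 0.17, SE, edgeR adjusted p = 0.0211). The adjusted p was 0.0749 without shControl replicate 1, 0.0944 without shControl replicate 2, 0.088 without shLmna replicate 2 and 0.107 without shLmna replicate 3 (edgeR), in a range of 0.00405 to 0.107.

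Dnajc11 (chr4:151933691-151982137, plus strand) is a J protein of the mitochondrial outer membrane that binds the complex which shapes the cristae. Its levels were 199, 169 and 142 CPM in shControl and 105, 93.6 and 92.0 in shLmna. The shLmna libraries lay close together and below all shControl libraries. Dnajc11 fell by 43.2% (log2 fold change -0.82 ± 0.16, SE, edgeR adjusted p = 0.00336), and without any 1 library the adjusted p stayed at or below 0.0275.

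Dnajc4 and Dnajb14 rose. Dnajc4 (chr19:6987911-6992572, minus strand), a J protein assigned to mitochondria, stood at 23.9, 15.6 and 24.4 CPM in shControl and at 41.2, 32.3 and 34.0 in shLmna. The groups were apart, and the increase was 70.8% (log2 fold change 0.77 ± 0.22, SE, edgeR adjusted p = 0.0308). It did not pass without shControl replicate 2 (0.172), shLmna replicate 1 (0.123) or shLmna replicate 3 (0.0745) in edgeR, with a range of 0.0153 to 0.172 over the alternatives. Dnajb14 (chr3:137867675-137916557, plus strand), an ER membrane J protein that calls cytosolic HSC70 to proteins marked for degradation, was at 9.80, 19.1 and 13.3 CPM in shControl and 25.1, 26.1 and 22.9 in shLmna. Its log2 fold change was 0.79 ± 0.25 (SE, edgeR adjusted p = 0.0475). Of the called members Dnajb14 was closest to the threshold. It passed in only 1 of 6 fits that each left out 1 library (the one without shControl replicate 2, against 0.0628 to 0.174 in the others), and it had an adjusted p of 0.0833 in DESeq2 and 0.108 with the GC correction, in a range of 0.0349 to 0.174 over the alternatives.

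Among the J proteins that did not pass were cytosolic partners of HSC70. Dnajb1, the heat-inducible HSP40, stood at 83.5, 91.3 and 106 CPM in shControl and at 64.5, 81.5 and 69.7 in shLmna. The groups did not overlap, but the log2 fold change of -0.37 (95% interval -0.72 to -0.03) did not pass over all genes (edgeR adjusted p = 0.139). Dnaja2, whose mean over the 6 libraries was level with that of Dnaja3, overlapped between the groups, with 53.3 to 93.4 CPM in shControl and 55.1 to 84.1 in shLmna (log2 fold change -0.03, 95% interval -0.49 to 0.43). Dnaja1 was not analysed here. The J proteins that work at the ribosome or in splicing (Dnajc2 with its partner Hspa14, Dnajc8 and Dnajc17) held no call among 4 genes by edgeR or limma-voom, 2 at an unadjusted p under 0.05 (Dnajc2 and Dnajc17, both lower) and 1 call by DESeq2 (Dnajc2). The log2 fold change of Dnajc2 was -0.43 (edgeR adjusted p = 0.0503). The 8 genes tested of the J protein and HSP70 genes of the ER that the symbol rule kept held 1 call, Dnajb14. It rose, as did 7.96% of all genes. The median log2 fold change of the 8 was 0.13.

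The CCT ring is built from 8 different subunits, Tcp1 being the first and not a member by its symbol. Of the 7 Cct genes tested 1 fell, beside 5.78% of all genes. Log2 fold changes were negative for 6 of the 7, beside 49.6% of all genes, and ranged from -0.70 (Cct6a) to 0.25 (Cct4). Cct7 (chr6:85451514-85468475, plus strand) stood at 1452, 1381 and 1265 CPM in shControl and at 1059, 880 and 824 in shLmna. The groups did not overlap, and Cct7 fell by 32.6% (log2 fold change -0.57 ± 0.14, SE, edgeR adjusted p = 0.0155). The adjusted p was 0.0588 without shControl replicate 1, 0.0778 without shControl replicate 2, 0.058 without shLmna replicate 2 and 0.0844 without shLmna replicate 3 (edgeR), in a range of 0.00263 to 0.0844. Cct3, with the highest mean of the subunits, was at 1397, 1530 and 1243 CPM against 1144, 1039 and 1211 (log2 fold change -0.30, 95% interval -0.59 to -0.0034, edgeR adjusted p = 0.171).

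Cct6a showed the largest shift among the subunits and the least even libraries. It was at 1849, 965 and 848 CPM in shControl and at 954, 623 and 683 in shLmna, so that shControl replicate 1 stood alone and the groups overlapped (log2 fold change -0.70, edgeR adjusted p = 0.0754, and -0.92 to -0.28 with a library left out). Cct6a passed in edgeR without shControl replicate 3. Cct4, Cct5 and Cct8 also overlapped between the groups, and Tcp1 had a log2 fold change of 0.36 that did not pass (edgeR adjusted p = 0.128). Whether the subunits differed from each other in their change was not tested. Of the 9 CCT partner genes tested, prefoldin subunits and phosducin-like cofactors among them, only Pdcl, which helps CCT fold G protein beta subunits, was called. Among all genes 7.96% were called higher. With the GC correction Vbp1 and Pfdn4 passed as well, both lower (log2 fold change -0.90 and -0.83, edgeR adjusted p = 0.00111 and 0.041). Pdcl rose from 9.41, 10.6 and 13.3 to 18.7, 23.9 and 22.9 CPM (log2 fold change 0.99, edgeR adjusted p = 0.0129), and it did not pass without shControl replicate 1 (0.0546), shControl replicate 2 (0.075), shLmna replicate 2 (0.052) or shLmna replicate 3 (0.0506) in edgeR, in a range of 0.00666 to 0.075.

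**Figure D4:**
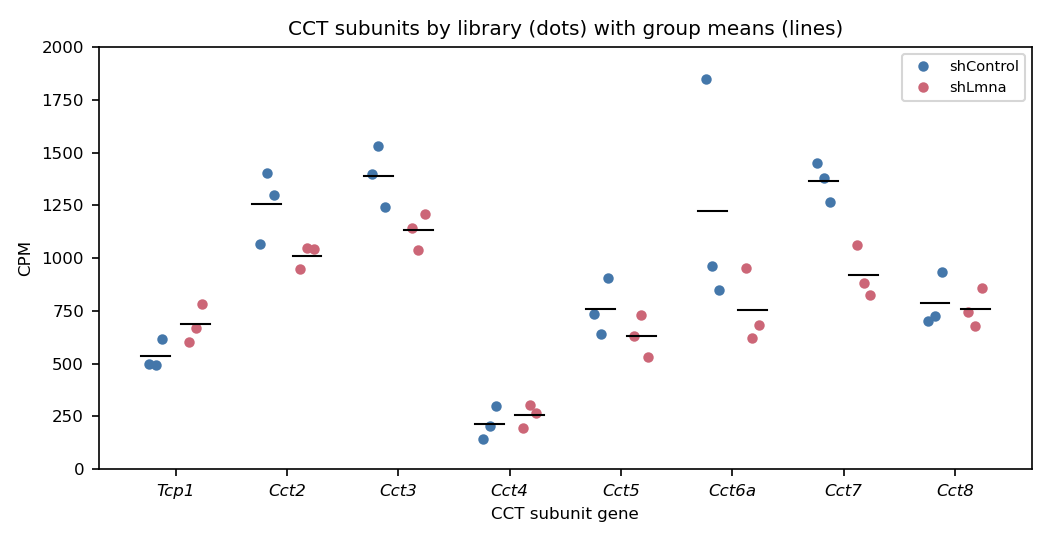
CPM (y axis, from 0) of the 8 CCT ring subunits (x axis) in each shControl (blue) and shLmna (red) library, with the group means as lines. The groups are apart for Cct2, Cct3 and Cct7, and the shControl library near 1849 in Cct6a stands alone.

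Of 9 mitochondrial members tested, Dnajc11 fell, Dnajc4 rose and the others did not pass. Among all genes 5.78% fell and 7.96% rose. The log2 fold change was negative for 8 of the 9, beside 49.6% of all genes, with a median of -0.17. Hspd1 encodes HSP60 and Hspe1 its lid, HSP10, from a shared promoter region. Hspd1 was at 922, 947 and 657 CPM in shControl and 575, 526 and 732 in shLmna, which overlapped (log2 fold change -0.46, edgeR adjusted p = 0.0855). Hspe1 was at 985, 1033 and 962 against 892, 768 and 1076 (log2 fold change -0.12, 95% interval -0.44 to 0.19, edgeR adjusted p = 0.622). Of the 50-base words of their 3' ends 35.2% and 36.1% are shared with other annotated transcripts, pseudogenes among them, so both values are uncertain. Of 11 mitochondrial partner genes tested 1 fell, beside 5.78% of all genes. It was Clpp, the peptidase of the matrix ClpXP protease. Clpp fell from 333, 303 and 278 to 237, 225 and 209 CPM (log2 fold change -0.45, edgeR adjusted p = 0.042). Of the 6 fits that left out a library it passed without shControl replicate 3 and had an adjusted p of 0.057 to 0.138 in the others (edgeR, range 0.0152 to 0.138 over the alternatives). With the GC correction Grpel1 and Pam16 passed as well, both lower (log2 fold change -1.42 and -0.53, edgeR adjusted p = 0.0339 and 0.0464). Grpel1 had only 2 to 13 UMIs in a library.

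Small heat shock proteins hold unfolded proteins without ATP. Hspb6 (chr7:30552178-30555443, plus strand), which encodes HSP20, rose, from 40.0, 27.5 and 22.3 CPM in shControl to 50.2, 43.7 and 59.6 in shLmna, with no overlap (log2 fold change 0.75 ± 0.22, SE, edgeR adjusted p = 0.0327). It did not pass without shControl replicate 2 (0.16), shControl replicate 3 (0.0627), shLmna replicate 1 (0.0888) or shLmna replicate 3 (0.147) in edgeR, in a range of 0.0105 to 0.16. The end of Hspb6 overlaps Lin37 on the other strand, and whether counting used the strand is not given in the sources used here. Lin37 itself had a log2 fold change of -0.24 (edgeR adjusted p = 0.546). Hspb8, the most abundant of the family and a partner of Bag3 in autophagy of misfolded proteins, was at 266, 248 and 361 CPM against 209, 265 and 209, which overlapped (log2 fold change -0.35, edgeR adjusted p = 0.18). Hspb1 was not analysed here.

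The list of classical heat-inducible members named 13 genes, of which 10 were tested. By edgeR, DESeq2 and limma-voom 4 of them fell, beside 5.78% of all genes in edgeR. Of these 4, Hspa1b and Hsph1 are induced by heat, while Hspa8 and Hsp90ab1 are mainly constitutive genes. None rose by any of these tools and 0 were higher at an unadjusted p under 0.05. All 10 log2 fold changes were negative, with a median of -0.49 against 0.0033 over all genes. Their summed level was 13150, 12021 and 10476 CPM in shControl and 8232, 6771 and 8196 in shLmna. Hspa8 and Hsp90ab1 made up 70.4% to 78.5% of that sum in each library. Without them, a sum added after the values were seen, it was 2822, 2887 and 2653 CPM in shControl and 2080, 1949 and 2430 in shLmna, or 0.772 times in place of 0.651 times the shControl level. Both sums were lower in all shLmna than in all shControl libraries. Taken singly, 7 of the 10 genes were lower without overlap between the groups, beside 15.7% of all genes. Of 13 tested genes on the list of heat shock factors and other heat-inducible genes 1 fell and 2 rose, with a median of -0.02. Among all genes 5.78% fell and 7.96% rose. Hsf1 itself had a log2 fold change of 0.04 and Bag3, a strongly heat-inducible HSP70 cofactor, of -0.02 (edgeR adjusted p = 0.886 and 0.953). Whether the 2 lists differed was not tested.

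The called genes of that second list went different ways. Chordc1, which is also a co-chaperone and is described there, rose. Dedd2, a death effector domain gene, fell from 35.3, 51.3 and 38.2 to 20.6, 21.7 and 19.1 CPM (log2 fold change -1.03 ± 0.21, SE, edgeR adjusted p = 0.00461). Serpinh1, the collagen chaperone HSP47 of the ER, rose from 516, 452 and 393 to 838, 609 and 693 CPM (log2 fold change 0.65, edgeR adjusted p = 0.0126), and it did not pass without shControl replicate 2 (0.0736) or shLmna replicate 1 (0.0702) in edgeR, in a range of 0.00273 to 0.0736. Of 4 genes tested that respond to handling, Atf3 (log2 fold change -1.71) and Jun (-0.97) fell (edgeR adjusted p = 2.85e-05 and 0.000471), beside 5.78% of all genes. Junb (0.07) and Ier2 (-0.32) did not pass (edgeR adjusted p = 0.835 and 0.184), and Fos and Egr1 were not analysed here. The summed level of the list was 415 to 442 CPM in shControl and 260 to 298 in shLmna, and its part in the changes of the heat-inducible members was not tested.

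**Figure D5:**
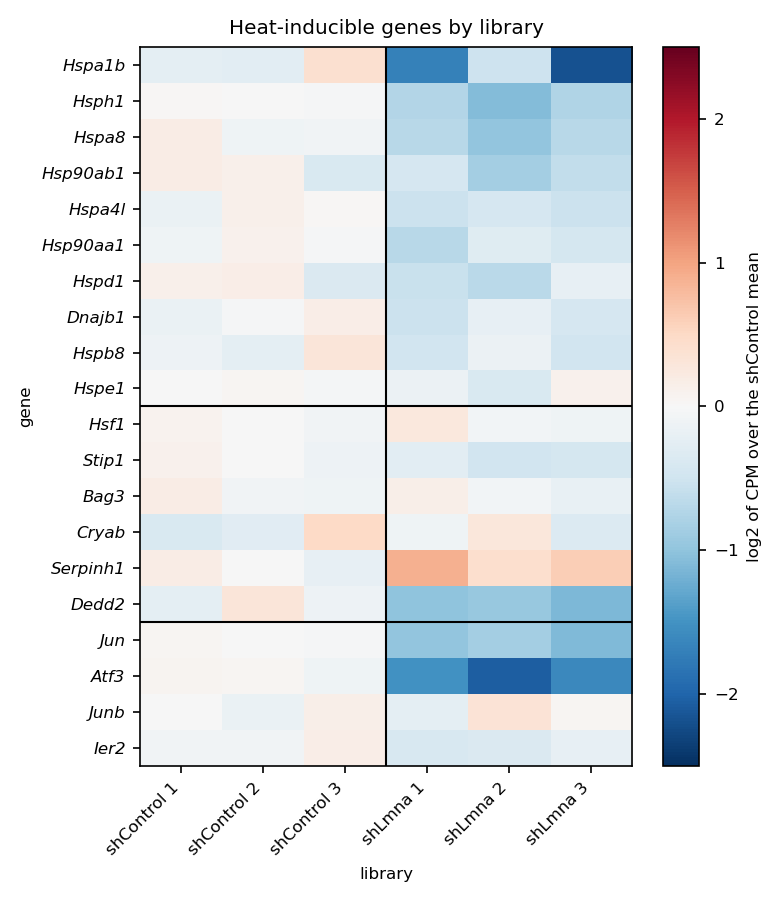
Log2 of the CPM over the shControl mean (color) for 10 heat-inducible members (top), 6 of the other heat-responsive genes, selected after their values were seen (middle) and 4 handling-responsive genes (bottom), in the 6 libraries (x axis). The shLmna columns are blue for Hspa1b, Hsph1, Hspa8 and Hsp90ab1 and near white for Hsf1 and Bag3, and Serpinh1 is red. Chordc1, a called gene of the same list as the middle genes that rose (log2 fold change 3.33), is not drawn.

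Of the co-chaperones of HSP70 and HSP90, 25 were tested and 2 rose, beside 7.96% of all genes. None fell by edgeR or limma-voom, while DESeq2 called 2 lower and 4 were lower at an unadjusted p under 0.05, with a median log2 fold change of -0.08. Both that rose were almost absent from shControl. Chordc1, an HSP90-binding protein, had 1, 5 and 13 UMIs in shControl and 56, 72 and 60 in shLmna (log2 fold change 3.33 ± 0.47, SE, edgeR adjusted p = 0.000334). Tomm70a, the outer membrane receptor that takes precursor proteins from HSP70 and HSP90, had 1, 3 and 5 UMIs in shControl and 32, 33 and 25 in shLmna (log2 fold change 3.33 ± 0.45, SE, edgeR adjusted p = 0.000223). Both passed without any 1 library. The log2 fold change without shControl replicate 3 was 4.58 for Chordc1 and 4.06 for Tomm70a, and without shControl replicate 1 it was 2.80 and 2.90, the ends of both ranges with a library left out. Their 3' ends hold 30.8% and 36.1% GC, where the median of all genes tested is 47.1%. With the GC correction the log2 fold change was 2.64 for Chordc1 and 2.97 for Tomm70a (edgeR adjusted p = 0.00044 and 0.00031). Stip1, the adaptor between HSP70 and HSP90, had a log2 fold change of -0.39 that did not pass (edgeR adjusted p = 0.0666). The ER chaperones that the symbol rule left out, together with Hspg2, held 0 calls among 6 genes by edgeR, DESeq2 and limma-voom. In edgeR 13.7% of all genes were called, so 6 genes are too few to read this count. At an unadjusted p under 0.05 there was 1 (Hspg2, log2 fold change 0.48). With the GC correction Dnajb9 passed, lower (log2 fold change -0.73, edgeR adjusted p = 0.0399, range 0.0399 to 0.981 over the alternatives).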

How the data were processed

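RNA of E0771 cells was measured by bulk MARS-seq in 3 shControl and 3 shLmna libraries. The authors trimmed reads with Cutadapt, mapped them to mm10 with STAR 2.4.2a and used a modified HTSeq to count UMIs over the final 1000 bases of RefSeq genes and the 100 bases that follow. The deposited counts are raw UMI counts, without normalization, for genes with at least 6 UMIs in some library. A deposited table of ComBat-corrected values and the table of the authors' own DESeq2 comparison (fold changes and p-values) were not used. Reads shared by near-identical genes may have been dropped or split.

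The fit used edgeR 4.0.16 in R 4.3.3 (filterByExpr with a minimum count of 10, TMM factors, quasi-likelihood test, Benjamini-Hochberg adjustment over all 8969 genes tested, threshold 0.05), without a replicate block. Levels are CPM with TMM factors, errors are SD over 3 libraries or SE of the log2 fold change, and 95% intervals use the t quantile of the fit. An exact permutation test of 3 against 3 cannot go below p = 0.1, so single genes were tested only in this fit. Library totals of 1846208 to 3242051 UMIs limit scarce genes most. Alternatives were DESeq2 1.42.0, limma-voom (limma 3.58.1), RLE and upper-quartile factors, the replicate block, no filter, a filter at a mean count of 50, a loess correction (span 0.3) for GC content of the last 1000 bases (GENCODE M21), both together, and leaving out each library. The fit was tested on simulated data. Promoter windows came from RefSeq (GRCm38.p6) and gene positions from GENCODE M21. Plots were drawn with matplotlib 3.10.9 and tables joined with pandas 2.3.3 and numpy 2.4.6 under Python 3.11.15.

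Members and lists were chosen with earlier results of these data known, so no set test was run. Genes are named by rule: called members, the most abundant member of each family, the classical heat-inducible members Hspa1b, Dnajb1, Hsph1 and Hsp90aa1, called genes of the pathway lists, the Cct subunits and Lmna. Other genes were named after their values were seen.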

Additional observations from a re-analysis of the deposited data

How the results depend on the processing

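The number of members that fell (7) was 6 to 9 under DESeq2, limma-voom, RLE and upper-quartile factors, no filter, a mean count of at least 50 and the GC correction, and the number that rose (3) was 2 or 3. Leaving out 1 library gave 3 to 11 members that fell and 0 to 2 that rose, while 540 to 1580 of all genes were called. The cause was not tested. Same-numbered libraries correlated at 0.35, -0.11 and 0.0052 in their deviations from the group means, so the numbers were not taken to pair the samples. With the replicate number as a block 11 members fell, and with the block and the GC correction 12. The block called 14 members, among them all 10 of the fit without it and Cct6a, Dnajb2, Dnajc17 and Dnajc2 (edgeR adjusted p = 0.0131, 0.0231, 0.0421 and 0.0456). The study's criteria held for 1 member, for 0 with a mean count of at least 50 (which leaves out Hspa1b), for 2 with the GC correction, alone or with the block, and for 0 to 2 with a library left out. Called genes of the co-chaperone and heat shock factor lists numbered 4, with 7 by DESeq2 and 2 with a mean count of at least 50. They numbered 6 with the GC correction, alone or with the block, and 3 to 7 with a library left out. The median log2 fold change of the members stayed between -0.21 and -0.13, and that of Lmna between -1.26 and -1.15. Dnaja2 (-0.03) ranged from -0.23 to 0.21 with a library left out, and was 0.21 without shControl replicate 3, 0.08 without shLmna replicate 1 and 0.0098 without shLmna replicate 3. Over all the alternatives, the fits with a library left out among them, the median of all genes tested shifted by -0.037 to 0.012.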

Other observations

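J proteins with tasks outside the heat shock response are given here as values, chosen after they were seen. Dnajb6, a J protein that keeps polyglutamine proteins from aggregating, stood at 28.2, 28.5 and 37.1 CPM in shControl and at 24.4, 21.7 and 20.2 in shLmna. The groups did not overlap, and the log2 fold change of -0.48 did not pass (edgeR adjusted p = 0.133). Dnajb2 was at 49.4, 32.8 and 28.1 against 33.7, 17.2 and 16.5, which overlapped (log2 fold change -0.70, edgeR adjusted p = 0.117). Dnajb4 was at 16.1, 15.6 and 23.9 against 20.6, 26.8 and 34.6 (log2 fold change 0.57, edgeR adjusted p = 0.147). The 3' end of Dnajb4 holds 33.1% GC, and with the GC correction its log2 fold change was -0.02 (edgeR adjusted p = 0.967, in a range of 0.0459 to 0.967 over the alternatives). The spliceosomal Dnajc17 was at 30.2, 33.1 and 20.7 against 15.7, 22.0 and 14.4 (log2 fold change -0.69, edgeR adjusted p = 0.072), and 19.0% of the 50-base words of its 3' end are shared with Gm6257.

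Clathrin coats are removed by HSC70 with an auxilin J protein. Gak, the auxilin that is made outside neurons and is no member by its symbol, was at 143, 170 and 128 CPM in shControl and at 127, 113 and 107 in shLmna. All shLmna libraries lay below all shControl libraries, and the log2 fold change of -0.35 did not pass (edgeR adjusted p = 0.148). J proteins of vesicles and endosomes overlapped between the groups, with log2 fold changes of -0.26 for Dnajc5 (95% interval -0.61 to 0.10) and -0.11 for Dnajc13 (-0.50 to 0.29). The same was true of the import motor genes Dnajc15 (-0.16, -0.49 to 0.17) and Dnajc19 (-0.13, -0.58 to 0.33), of the histone-binding Dnajc9 (0.17, -0.16 to 0.51) and of Dnajc21 (0.19, -0.17 to 0.55), which works in ribosome assembly.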
